A study of Mus musculus with 22 samples.

Results

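The levels of 5 genes were followed through single-cell RNA data from neutrophils of the mouse terminal ileum: Tlr2 and Tlr4, which encode toll-like receptors, Cd14, which encodes their lipopolysaccharide co-receptor, Myd88, which encodes their signalling adaptor, and Lrg1, which encodes a secreted leucine-rich glycoprotein of neutrophil granules and of the acute phase response. They are called the members below and were taken by gene symbol, as 5 of the 23091 genes named in the deposited tables. Rows for Tlr2, Cd14 and Lrg1 stood in all 22 tables, and rows for Tlr4 and Myd88 in 20. Levels were described by group, library and cell class.

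Toll-like receptors sense microbial products at the surface or in the endosomes of innate immune cells. TLR4 binds bacterial lipopolysaccharide, which CD14 hands on to it, and TLR2 binds bacterial lipoproteins. Both receptors signal through the adaptor MYD88 to IRAK kinases and on to NF-kB, a transcription factor that raises cytokine and chemokine genes, and receptors of the interleukin-1 family share that adaptor. LRG1 is not part of this pathway. It is a secreted protein of the acute phase, known for binding components of TGF-beta signalling in endothelial cells of mice and humans.

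The aGVHD group held 12 libraries from BALB/c recipients with acute graft-versus-host disease, in which donor T cells attack the tissues of the host. The control group held 10 libraries from BALB/c recipients transplanted without T cells. Recipients of both groups were 7 to 9 weeks old, were irradiated with 2 doses of 5 Gy, received 5000000 bone marrow cells of C57BL/6 donors and were studied on day 21. The aGVHD recipients also received 400000 T cells of C57BL/6 donors, and the control recipients none, so the control is an irradiated and transplanted gut, not a healthy one. Donors were 7 to 10 weeks old. The sort gate was CD45+H2kb+CD11b+Ly6G+, where H2kb marks cells of donor origin and Ly6G marks neutrophils. Sorted cells were sequenced by CEL-Seq2, a plate method that tags each transcript at its 3' end with a molecular identifier. The labels do not say which mouse a library came from. The tests therefore see variation among libraries alone, and part of it may be technical.

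Each library held 192 barcodes, numbered alike in all 22 tables, and its table summed to 45607 to 360054 transcripts. A barcode with at least 500 transcripts was kept as a cell, which left 1025 cells in aGVHD libraries (74 to 95 per library) and 358 in control libraries (11 to 60). Control replicates 5, 9 and 10 held 12, 12 and 11 cells and were the shallowest. Named genes took 22.1% to 68.4% of a library's transcripts in kept cells, and levels are given as CPM, transcripts per 1000000 of these. In a library 3 transcripts, the limit that a count of 0 allows, correspond to 12.7 to 45.5 CPM in aGVHD and 22.6 to 342 CPM in control libraries. Such floors, and the intervals below, cover counting error only. Titles fall into a dated set (8 aGVHD and 6 control libraries) and a G1 set (4 and 4), and the set entered each model as a covariate.

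Kept cells were clustered without the 5 members and named from marker genes. Of 1383 cells, 601 were neutrophil-like (469 aGVHD, 132 control) and 99 macrophage/monocyte-like (53 and 46). The B or plasma cell-like cluster held 30 (23 and 7) and the epithelial-like cluster 29 (12 and 17), while 624 cells stayed unnamed (468 and 156). Of the unnamed cells, 124 and 117 were in clusters with 7 and 3 raised neutrophil markers, each with the eosinophil marker Siglecf among its 10 leading genes. Per library, neutrophil-like cells made up 45.7% ± 15.3 of kept cells in aGVHD (SD, n = 12) and 33.2% ± 9.1 in control libraries (SD, n = 10), and macrophage/monocyte-like cells 5.2% ± 2.5 and 14.9% ± 6.5. The gate was thus not pure. The 23 neutrophil markers found in the tables summed to 39701 ± 24371 CPM (19299 to 90946) in aGVHD and 15557 ± 5107 CPM (8653 to 23525) in control libraries. The 21 macrophage/monocyte markers summed to 11927 ± 5913 CPM (4089 to 24206) in aGVHD and 18340 ± 12004 CPM (7625 to 48296) in control libraries. Every one of these markers was above 0 in both groups. Their part in the differences over all kept cells below was not tested, so each is also given within neutrophil-like cells. Within that class the make-up of the pooled cells differed too, with no test between libraries. A cluster led by the granule genes Ngp, Camp, Ltf, Retnlg and Mmp8, with Lcn2 among its 10 leading genes, held 128 of 469 neutrophil-like cells in aGVHD and 11 of 132 in control libraries. Its cells came from 17 libraries, 22.3% of them from 1, and these genes were in the gene pool for clustering.

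Promoters of the members show what their start sites hold. RefSeq windows on build GRCm38.p6, 250 bases before to 50 bases after the annotated start, are shown for Tlr2, Myd88 and Lrg1. All 3 genes lie on the minus strand. Tlr4 had no window, and Cd14 was left out of the search. The windows are Tlr2 at chr3:83841559-83841858, Myd88 at chr9:119339969-119340268 and Lrg1 at chr17:56121897-56122196. They are printed 5' to 3', in lower case with matches in capitals.
Tlr2: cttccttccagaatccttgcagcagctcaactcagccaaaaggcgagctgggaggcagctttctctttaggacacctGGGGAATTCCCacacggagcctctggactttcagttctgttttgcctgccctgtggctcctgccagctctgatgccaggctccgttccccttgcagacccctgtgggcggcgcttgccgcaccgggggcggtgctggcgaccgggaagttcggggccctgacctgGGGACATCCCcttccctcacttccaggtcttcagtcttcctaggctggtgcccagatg
Myd88: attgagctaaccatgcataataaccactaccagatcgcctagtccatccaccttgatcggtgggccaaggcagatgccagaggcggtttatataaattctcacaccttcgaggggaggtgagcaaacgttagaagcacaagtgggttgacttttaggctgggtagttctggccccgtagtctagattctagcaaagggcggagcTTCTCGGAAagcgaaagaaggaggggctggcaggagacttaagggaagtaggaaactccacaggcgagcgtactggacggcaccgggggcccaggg
Lrg1: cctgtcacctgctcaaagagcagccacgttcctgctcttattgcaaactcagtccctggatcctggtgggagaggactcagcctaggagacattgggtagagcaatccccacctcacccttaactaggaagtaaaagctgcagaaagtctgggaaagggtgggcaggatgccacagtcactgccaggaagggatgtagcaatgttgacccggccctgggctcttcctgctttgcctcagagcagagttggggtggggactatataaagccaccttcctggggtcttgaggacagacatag

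Both strands were searched for the NF-kB motif, for TTCNNNGAA (the STAT motif), for TTGCNNAA (C/EBP) and for GAGGAA (PU.1). With the start base counted as 0, the NF-kB motif matched the Tlr2 window at -173 to -164 and at -172 to -163, which overlap, and at -8 to 1. The STAT motif, whose letters read alike on both strands, matched the Myd88 window at -46 to -38. None of the 4 motifs matched the Lrg1 window. Of 32851 promoters of the same length, 4.5% held the NF-kB motif, 8.3% the STAT motif, 10.8% the C/EBP motif and 28.3% the PU.1 motif. A match is a run of letters and not a shown binding site.

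Over all kept cells, Lrg1 had the largest fitted difference of the members, with a mean of 491 CPM in aGVHD and 93.2 CPM in control libraries. Cd14 averaged 1859 CPM in aGVHD and 978 CPM in control libraries. For each of the 5 members the group means differed by less than the SD of the aGVHD libraries. In limma with Benjamini-Hochberg adjustment over 1736 genes, 0 of the 4 members tested passed an adjusted p of 0.05, against 8.64% of all genes tested (150, with 5.01% or 87 higher and 3.63% or 63 lower in aGVHD). Unadjusted, Lrg1 and Cd14 had p under 0.05, as did 432 of all genes tested. With median-of-ratios scaling the calls were 57 higher and 74 lower.

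**Figure D1:**
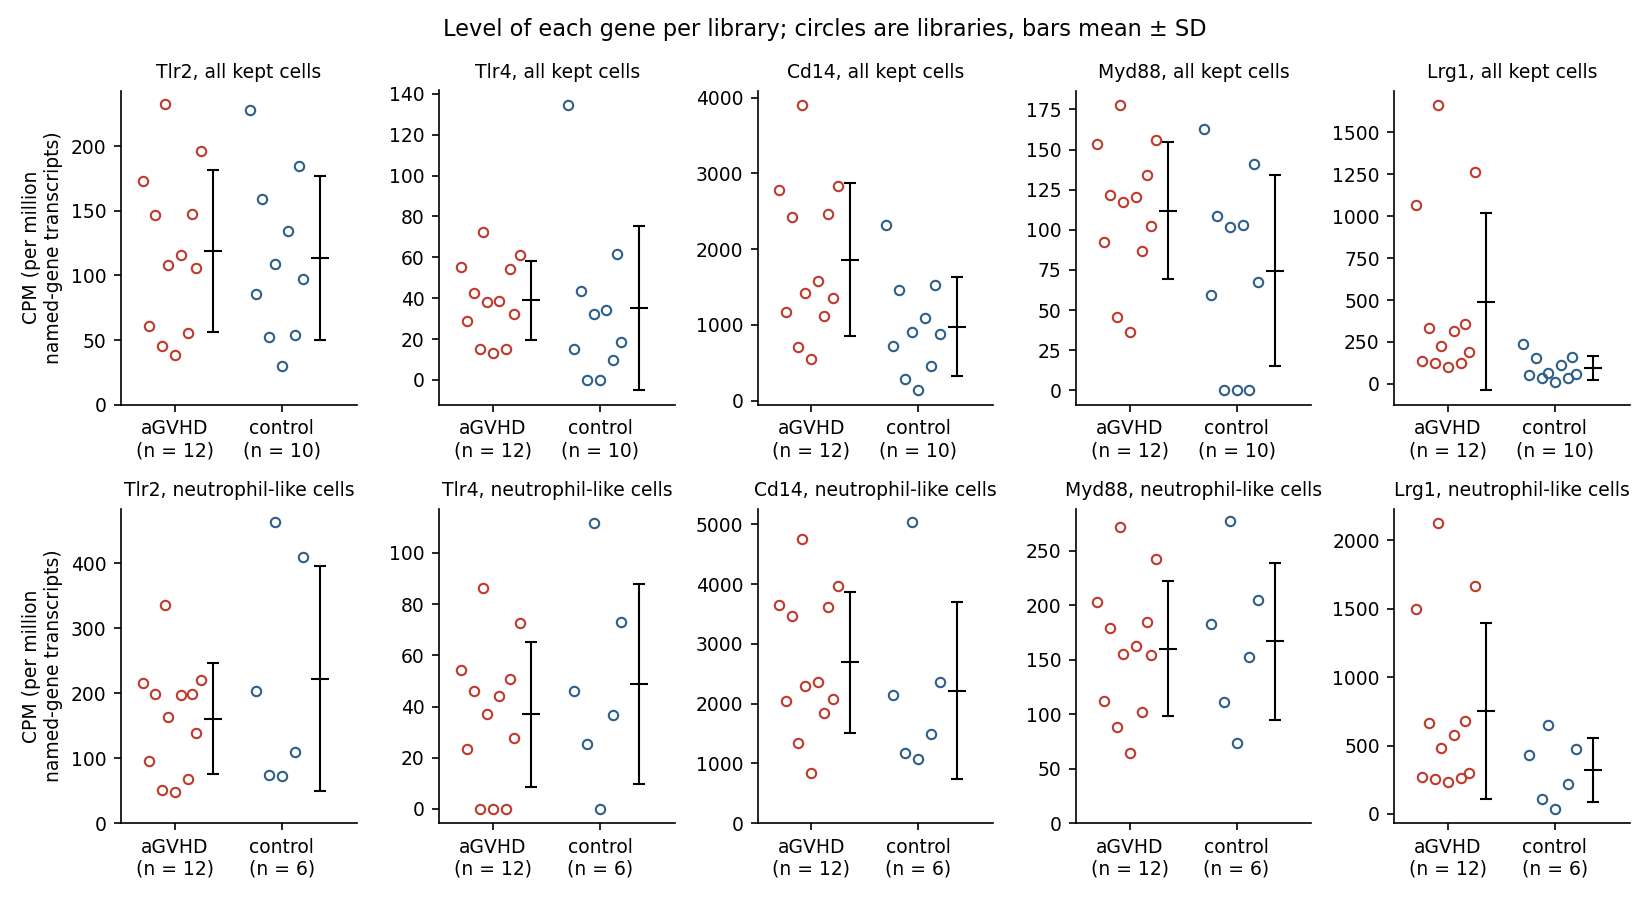
Level of each member in CPM per library, over all kept cells and over neutrophil-like cells, with aGVHD libraries left of control libraries; each point is a library and the bar its group's mean with SD. Lrg1 reaches 1665 CPM in aGVHD against at most 240 CPM in control libraries over all kept cells, while the groups overlap for every member.

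Tlr2, the receptor for bacterial lipoproteins, had 38.5 to 233 CPM (median 112) in the 12 aGVHD libraries and 29.9 to 228 CPM (median 103) in the 10 control libraries. The ranges nearly coincided, and 1 aGVHD library lay above the highest control. Means were 119 ± 62.7 CPM in aGVHD and 114 ± 63.2 CPM in control libraries (SD, n = 12 and 10). The fitted log2 fold change was 0.13 (SE 0.33, limma adjusted p = 0.859), with a 95% interval of -0.54 to 0.80. The values rest on 224 transcripts in aGVHD and 76 in control cells.

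Tlr4, the lipopolysaccharide receptor, was at the edge of detection, with 67 transcripts over all aGVHD cells and 23 over all control cells. It had 13.2 to 72.6 CPM (median 38.3) in aGVHD libraries and 0 to 135 CPM (median 25.5) in control libraries, of which 2 were at 0. The highest value, in control replicate 10, stood for 2 transcripts in 11 cells. Means were 38.9 ± 19.3 CPM in aGVHD and 35.0 ± 40.1 CPM in control libraries (SD, n = 12 and 10). Tlr4 did not pass the filter on low counts and had a log2 fold change of 0.10 without it (limma adjusted p = 0.862). A difference was not detectable at this depth.

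Cd14, the co-receptor that binds lipopolysaccharide and passes it to TLR4, had 553 to 3907 CPM (median 1500) in aGVHD libraries and 135 to 2326 CPM (median 895) in control libraries. In aGVHD, replicate 4 was the highest and replicate 10 the lowest. Control replicate 9, with 12 cells, gave the highest control value. In all, 5 aGVHD libraries exceeded it, and 10 of 12 lay above the control mean. Means were 1859 ± 1012 CPM in aGVHD and 978 ± 659 CPM in control libraries (SD, n = 12 and 10). The log2 fold change was 0.92 (SE 0.35, 95% interval 0.20 to 1.65, limma p = 0.0144, adjusted p = 0.100). It passed the threshold in 1 of 22 fits with a library left out, at 1.07 without aGVHD replicate 10 (adjusted p = 0.0337).

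Myd88, the adaptor of these receptors, had 36.7 to 178 CPM (median 119) in aGVHD libraries and 0 to 163 CPM (median 84.7) in control libraries. The 3 control libraries at 0 were the 3 with the fewest cells. Means were 112 ± 42.5 CPM in aGVHD and 74.4 ± 59.5 CPM in control libraries (SD, n = 12 and 10). The log2 fold change was 0.32 (SE 0.30, 95% interval -0.29 to 0.93, limma adjusted p = 0.569). It was 1.05 when libraries had equal weight (adjusted p = 0.216), the setting in which the 3 shallow libraries count as much as the others.

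Lrg1 had 97.7 to 1665 CPM (median 271) in aGVHD libraries and 10.9 to 240 CPM (median 63.5) in control libraries. The 3 high aGVHD libraries were replicates 6, 7 and 4, at 1665, 1068 and 1261 CPM, and the next was at 359 CPM in replicate 3. In all, 6 of 12 aGVHD libraries lay above the highest control library, 6 of 10 control libraries lay below the lowest aGVHD library, and 12 of 12 aGVHD libraries lay above the control mean. Means were 491 ± 530 CPM in aGVHD and 93.2 ± 72.5 CPM in control libraries (SD, n = 12 and 10). The log2 fold change was 1.80 (SE 0.58, 95% interval 0.60 to 3.0, limma p = 0.00464, adjusted p = 0.0503). It stayed between 1.53 and 2.04 with each library left out and passed the threshold in 4 of 22 such fits, without aGVHD replicates 1, 5, 10 or 12. Those 4 libraries had the lowest Lrg1 levels in aGVHD. Lrg1 and Cd14 both passed without a filter on low counts, where 14935 genes were tested, 4.23% were called and the median log2 fold change was -0.74, at a log2 fold change of 1.93 for Lrg1 (limma adjusted p = 0.0239) and 0.97 for Cd14 (adjusted p = 0.0471).

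The title sets gave these differences in unequal size. For Lrg1, means in the G1 set were 483 ± 528 CPM in aGVHD and 42.5 ± 24.3 CPM in control libraries (SD, n = 4 and 4), a log2 fold change of 3.12. In the dated set they were 495 ± 567 CPM in aGVHD and 127 ± 75.2 CPM in control libraries (SD, n = 8 and 6), a log2 fold change of 1.18. The aGVHD means were close between the sets, and the control means were apart. The set values for Cd14 were 1.22 in the G1 set and 0.77 in the dated set, for Myd88 0.93 and -0.02, and for Tlr2 0.42 and 0.13. None of the members passed in a set alone (limma adjusted p of 0.157 in the G1 set and 0.324 in the dated set for Lrg1). The test of the difference between sets gave 1.73 for Lrg1 (p = 0.189), 1.13 for Myd88 (p = 0.0755), 0.48 for Cd14 (p = 0.522) and 0.35 for Tlr2 (p = 0.619), with limma adjusted p of 0.898 or more. In that test 0.0% of 1736 genes were called, with 85 at an unadjusted p under 0.05.

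**Figure D2:**
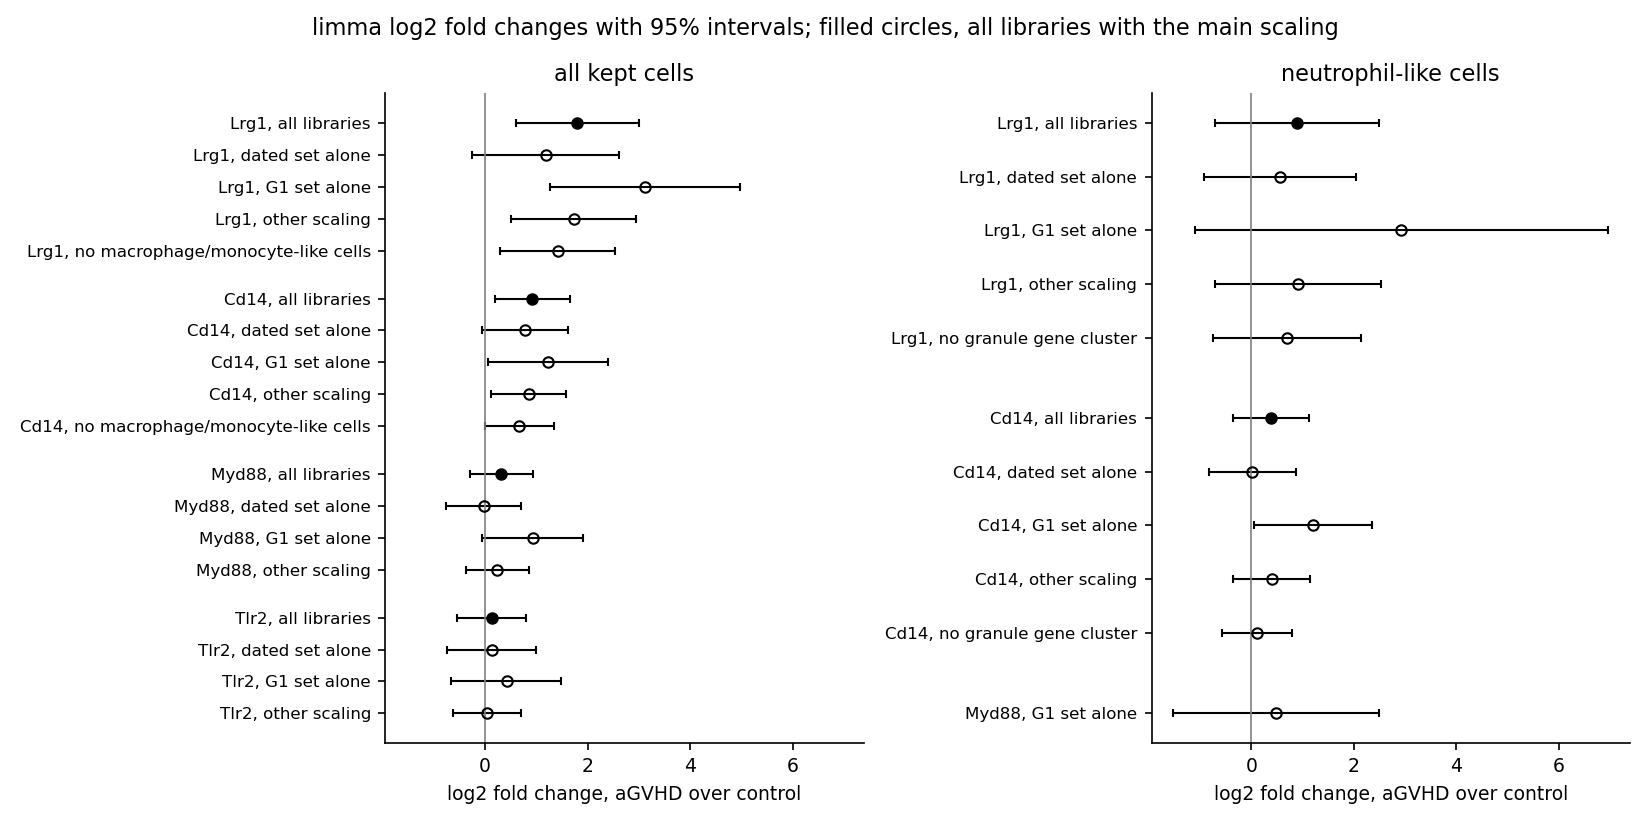
Fitted log2 fold change of each member, aGVHD minus control, with 95% intervals from limma, over all kept cells and over neutrophil-like cells, in all libraries (filled circles) and under other settings (open circles); members that did not pass the low-count filter have no point. The interval of Lrg1 over all kept cells runs from 0.60 to 3.0 and that within neutrophil-like cells from -0.70 to 2.50.

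Within neutrophil-like cells the fitted differences of Lrg1 and Cd14 were smaller than over all kept cells. Libraries with at least 10 such cells were compared, 12 aGVHD and 6 control. Cd14 had 846 to 4752 CPM (median 2329) in aGVHD and 1079 to 5041 CPM (median 1823) in control libraries, and no aGVHD library lay above the highest control, replicate 4. Lrg1 had 231 to 2123 CPM (median 532) in aGVHD and 37.2 to 647 CPM (median 326) in control libraries. For Lrg1, 5 of 12 aGVHD libraries were above the highest control library and 3 of 6 control libraries were below the lowest aGVHD library.

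Lrg1 averaged 751 ± 645 CPM in aGVHD and 320 ± 236 CPM in control neutrophil-like cells (SD, n = 12 and 6), a log2 fold change of 0.90 (SE 0.77, 95% interval -0.70 to 2.50, limma adjusted p = 0.676). Cd14 averaged 2688 ± 1179 CPM in aGVHD and 2216 ± 1477 CPM in control neutrophil-like cells, a log2 fold change of 0.38 (SE 0.36, 95% interval -0.36 to 1.12, limma adjusted p = 0.721). Neither passed, and neither had an unadjusted p under 0.05, against 0.137% of 729 genes called. Both intervals still include the values found over all kept cells, so the smaller difference was not shown to be a different one.

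The mean levels of both receptors were lower in aGVHD than in control cells of this class, and those of the adaptor were close, all within the spread between libraries. Tlr2 averaged 161 ± 84.7 CPM in aGVHD and 222 ± 173 CPM in control neutrophil-like cells, Tlr4 36.9 ± 28.2 CPM and 48.8 ± 39.0 CPM, and Myd88 160 ± 61.9 CPM and 167 ± 72.1 CPM (SD, n = 12 and 6). These 3 members did not pass the filter on low counts there. Without it the log2 fold changes were -0.33 for Tlr2, -0.47 for Tlr4 and -0.03 for Myd88, with limma adjusted p of 0.52 or more. Over all kept cells the same setting gave 0.14 for Tlr2, 0.10 for Tlr4 and 0.27 for Myd88, so the signs were opposite, and all 6 intervals include 0. No aGVHD library lay above the highest control for any of them.

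The title sets differed here as well. In neutrophil-like cells of the G1 set, Lrg1 averaged 704 CPM in aGVHD (n = 4) and 73.4 CPM in control libraries (n = 2), and in the dated set 775 CPM in aGVHD (n = 8) and 444 CPM in control libraries (n = 4). Cd14 averaged 2972 CPM in aGVHD and 1289 CPM in control libraries of the G1 set, and 2547 CPM and 2680 CPM in the dated set, where log2 fold changes were 1.21 and 0.02.

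Which cells carried the members was read from the clusters, pooled over both groups as a description. The granule gene cluster, with 139 cells, ranked highest for Cd14 at 4353 CPM (exact Poisson 95% interval 4129 to 4586), for Lrg1 at 1894 CPM (1747 to 2050), for Tlr2 at 250 CPM (199 to 311) and for Myd88 at 198 CPM (152 to 253). Since 128 of these cells are from aGVHD libraries, the pooled order is close to that of aGVHD cells. In control cells the cluster also ranked highest for Cd14, Lrg1 and Tlr2, but not for Myd88, which was at 112 CPM there from 2 transcripts and at 230 CPM in another neutrophil-like cluster from 6 transcripts. For Cd14 the next cluster, neutrophil-like and led by Cxcl2, Tnf and Cxcl1, was at 2508 CPM (2335 to 2690), and the intervals of these neighbours are apart. For Lrg1 the next was at 564 CPM (451 to 697), also apart. For Tlr2 and Myd88 the intervals of the leading clusters overlap, at 164 CPM (122 to 215) and 179 CPM (118 to 261) in the next cluster. Intervals cover counting error and not the spread between libraries.

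The members parted in the macrophage/monocyte-like cluster of 99 cells. Lrg1 was at 70.1 CPM there (49.4 to 96.7), the lowest of the 12 clusters over both groups, though its interval overlaps those of the unnamed clusters at 70.6 and 97.0 CPM. In neither group alone was it the lowest: Lrg1 was at 104 CPM there in aGVHD cells, against 79.9 CPM in an unnamed cluster, and at 26.2 CPM in control cells, against 20.4 CPM in another unnamed one. Tlr2 was at 131 CPM (102 to 166), within the range of the neutrophil-like clusters. Cd14 was at 1096 CPM (1008 to 1189), below all 4 neutrophil-like clusters. In the epithelial-like cluster Cd14 was at 217 CPM (164 to 281) and Tlr2 at 11.4 CPM (2.4 to 33.4), the lowest of the 12 for both; the Cd14 interval lies apart from that of the next cluster, at 603 CPM (496 to 726), and the Tlr2 interval does not. Tlr4 was highest in an unnamed cluster that holds 7 neutrophil markers and Siglecf, a lectin of eosinophils, at 86.4 CPM from 15 transcripts (48.3 to 143), and its interval overlaps that of the granule gene cluster at 55.6 CPM (33.0 to 87.9).

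**Figure D3:**
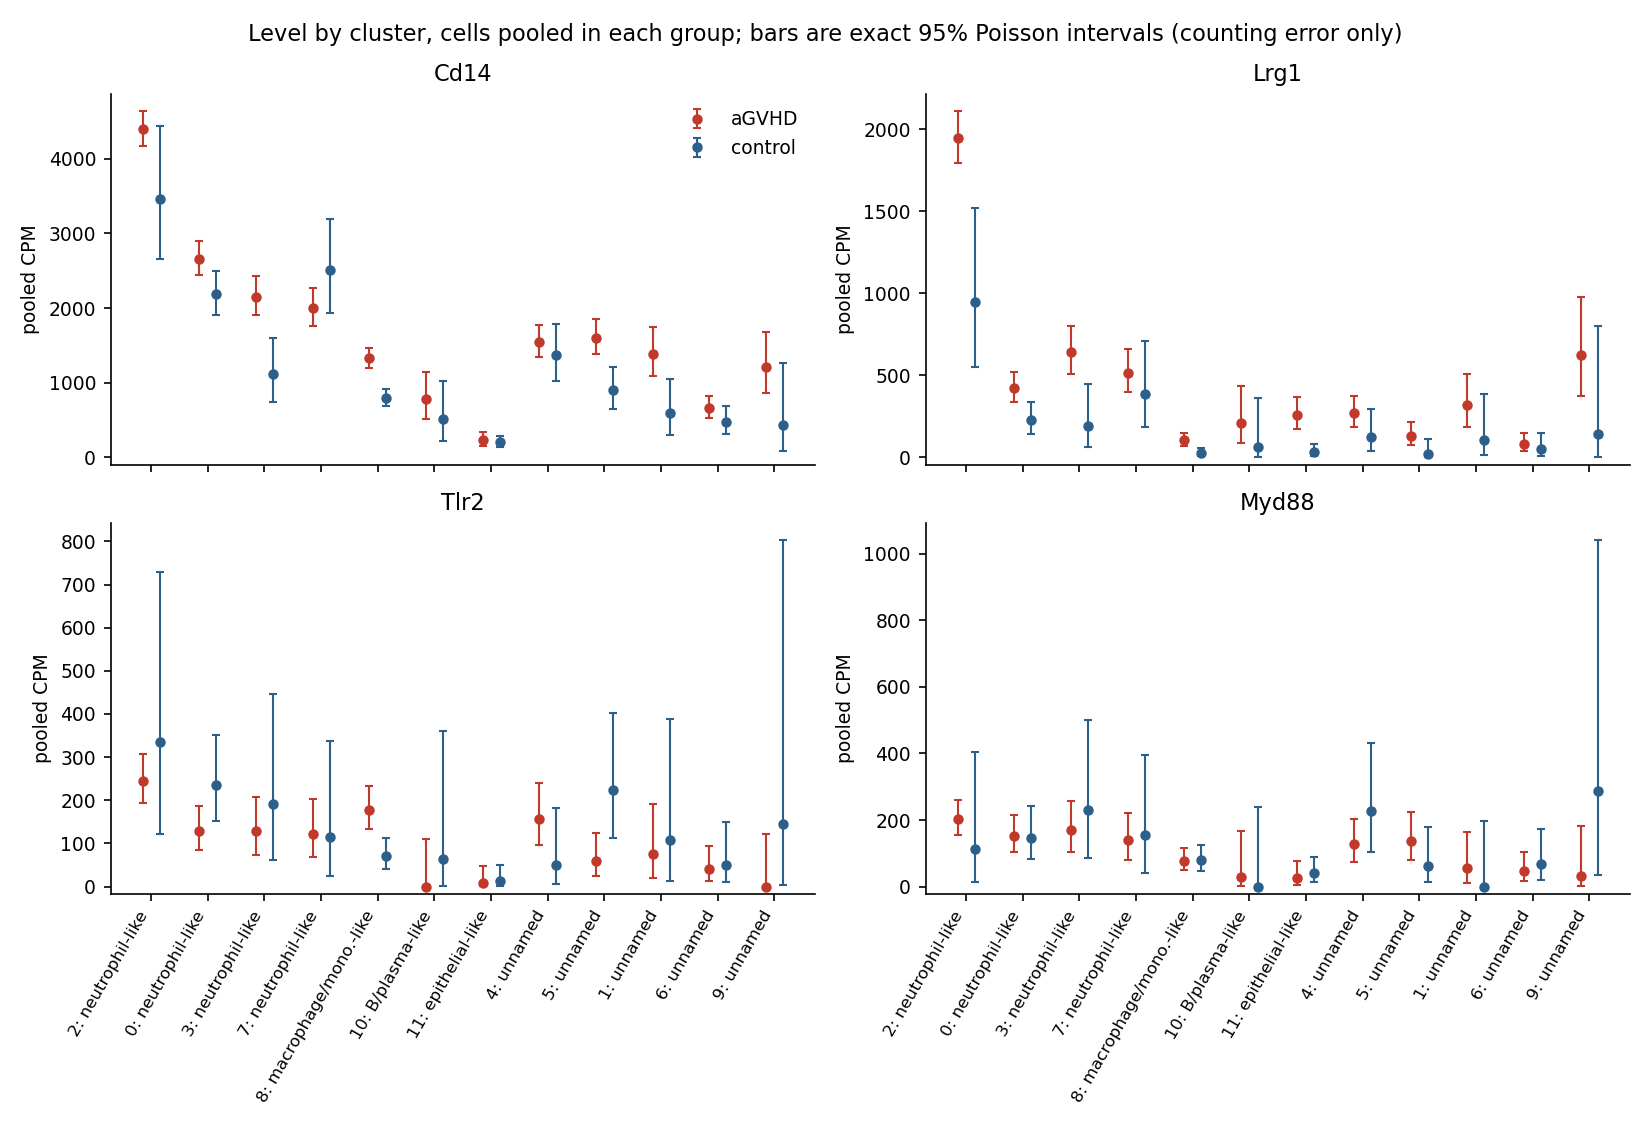
Pooled level of Cd14, Lrg1, Tlr2 and Myd88 in CPM in each of the 12 clusters, with aGVHD cells (red) left of control cells (blue) and exact Poisson 95% intervals, which cover counting error only. The granule gene cluster, numbered 2, is highest for Cd14 and Lrg1 in both groups, and the macrophage/monocyte-like cluster is at 178 CPM in aGVHD and 69.9 CPM in control cells for Tlr2.

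The share of each member's transcripts was set beside the share of cells in each group. In aGVHD, 83.4% of 992 Lrg1 transcripts came from neutrophil-like cells, which were 45.8% of cells, and in control libraries 69.6% of 79 from 36.9% of cells. The granule gene cluster alone held 60.1% of Lrg1 transcripts with 12.5% of cells in aGVHD, and 21.5% with 3.1% of cells in control libraries. Of the aGVHD Lrg1 transcripts, replicates 4, 6 and 7 supplied 22.8%, 27.5% and 25.4%, with 8.7%, 8.1% and 8.5% of cells, so the pooled aGVHD values for Lrg1 are mostly theirs. For Cd14 the granule gene cluster held 39.0% of 3455 transcripts in aGVHD and 8.4% of 739 in control libraries. For Myd88, neutrophil-like cells held 65.3% of 202 transcripts in aGVHD, and 39.1% of 69 in control libraries from 36.9% of cells. By level, Myd88 in control cells was at 157 CPM (104 to 229) in neutrophil-like cells. Over all control kept cells it was at 93.7 CPM (72.9 to 119). The granule gene cluster held 30.7% of Myd88 transcripts in aGVHD and 2.9% in control libraries, from 2 transcripts and 3.1% of cells there. Macrophage/monocyte-like cells held 23.7% of Tlr2 transcripts with 5.2% of cells in aGVHD, and 21.1% with 12.8% of cells in control libraries. They were deeper, with a median of 4808 named-gene transcripts in aGVHD and 2944 in control cells, against 1377 and 1176.5 in neutrophil-like cells. By level, Tlr2 in them was at 178 CPM in aGVHD, against 134 CPM over all aGVHD kept cells. In control cells it was lower there, at 69.9 CPM against 103 CPM.

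Inside the granule gene cluster Lrg1 was at 1949 CPM in aGVHD (exact Poisson 95% interval 1796 to 2112, 128 cells) and 948 CPM in control cells (553 to 1519, 17 transcripts in 11 cells). Cd14 was at 4405 CPM in aGVHD (4173 to 4647) and 3459 CPM in control cells (2652 to 4434). These are pooled cells with no test between libraries. Left out of the neutrophil-like sums, an alternative chosen after seeing the data, the cluster took the log2 fold change of Cd14 to 0.11 (SE 0.33, limma adjusted p = 0.905) and that of Lrg1 to 0.70 (SE 0.70, adjusted p = 0.749).

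In macrophage/monocyte-like cells Cd14 was at 1327 CPM in aGVHD (1200 to 1464, 53 cells) and 795 CPM in control cells (683 to 919, 46 cells). Tlr2 was at 178 CPM in aGVHD (133 to 232) and 69.9 CPM in control cells (39.9 to 113). Over the libraries with at least 5 such cells the spread was wide. Tlr2 averaged 129 ± 99.8 CPM in aGVHD and 55.7 ± 59.0 CPM in control libraries, and Cd14 1300 ± 838 CPM in aGVHD and 614 ± 617 CPM in control libraries (SD, n = 6 and 5), and the ranges overlapped for both. Left out of all kept cells, these cells took the log2 fold change of Cd14 to 0.67 (limma adjusted p = 0.285) and that of Lrg1 to 1.42 (adjusted p = 0.173).

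A background level was available from the other 96 barcodes of each library, which held almost no kept cells and 1.42% to 15.99% of a library's transcripts. Cd14 stood there at 755 CPM in aGVHD and 785 CPM in control libraries, and Lrg1 at 357 CPM in aGVHD and 257 CPM in control libraries. For Cd14 the control value is close to the 795 CPM pooled over control macrophage/monocyte-like cells, and the aGVHD value is below the 1327 CPM of aGVHD ones. For Lrg1 the control value exceeds the 107 CPM pooled over control kept cells, and the aGVHD value is below the 595 CPM of aGVHD kept cells. Tlr2 was at 32.5 CPM in aGVHD and at 0 of 66260 transcripts in control libraries. The part of such stray transcripts in the levels was not tested.

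The share of cells with a transcript was compared after thinning each cell to 500 transcripts. Median totals of neutrophil-like cells were 2280 transcripts in aGVHD and 1994 in control libraries. Cd14 was detected in 223 of 469 neutrophil-like cells in aGVHD (47.6%, exact 95% interval 43.0 to 52.2) and 50 of 132 in control libraries (37.9%, 29.6 to 46.7). Lrg1 was detected in 83 of 469 in aGVHD (17.7%, 14.4 to 21.5) and 7 of 132 in control libraries (5.30%, 2.16 to 10.6). In single aGVHD libraries the Lrg1 share was 33.9%, 37.9% and 35.4% in replicates 4, 6 and 7. In the others it was at most 15.8%, in replicate 3. The pooled shares treat cells as alike, and the test below is over libraries.

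Cells of other classes were set beside these shares as a background, though it was not shown that they lack the genes. Over both groups, 6 of 30 B or plasma cell-like cells (median total 1440) and 2 of 29 epithelial-like cells (6.90%, median total 13908) had a Cd14 transcript. For Lrg1 the counts were 1 of 30 (3.33%) and 2 of 29 (6.90%). The Cd14 share in neutrophil-like cells was above both in either group. The Lrg1 share in control neutrophil-like cells lay between them, so no difference is read from that share. Both background shares rest on few cells, and the epithelial-like one for Lrg1 was 2 of 12 in aGVHD and 0 of 17 in control cells. By level, Lrg1 in control cells was at 320 CPM in neutrophil-like (241 to 417), 34.0 CPM in epithelial-like (11 to 79.3) and 26.2 CPM in macrophage/monocyte-like cells (9.6 to 57.0). In aGVHD cells it was at 1085 CPM in neutrophil-like (1012 to 1162) and 104 CPM in macrophage/monocyte-like cells (70.6 to 147). In aGVHD epithelial-like cells it was at 260 CPM (175 to 371), from 30 transcripts in 12 cells.

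Per library, the share of neutrophil-like cells with Lrg1 was 13.74% ± 13.96 in aGVHD and 6.87% ± 11.2 in control libraries (SD, n = 12 and 10, permutation within title sets p = 0.239, adjusted p = 0.523). That with Cd14 was 44.5% ± 16.1 in aGVHD and 37.4% ± 31.8 in control libraries (permutation p = 0.523). That with Tlr2 was 4.26% ± 3.37 in aGVHD and 9.51% ± 16.2 in control libraries, and that with Myd88 4.45% ± 4.79 and 2.91% ± 4.42. Libraries of very few such cells carry some of these control means. Without control replicate 10, which held 3 such cells, the control mean for Lrg1 was 3.93% (exact permutation p = 0.0761, adjusted p = 0.19), and without control replicate 9, which held 2, that for Tlr2 was 5.01%. In the 6 control libraries with at least 10 such cells the means were 5.89% for Lrg1 and 7.51% for Tlr2. None of the 5 members passed at an adjusted p of 0.05 over the 5, in neutrophil-like or in all kept cells.

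The result for the Lrg1 share depended on the setting. Thinned to 250 transcripts of named genes, its share in neutrophil-like cells was 12.41 percentage points higher in aGVHD (permutation adjusted p = 0.0128). That setting also left out the 118 kept cells, over all classes, with fewer than 250 such transcripts, so the cells compared changed too. Without thinning and pooled over cells, 208 of 469 aGVHD neutrophil-like cells (44.3%) and 25 of 132 control ones (18.9%) had an Lrg1 transcript. The mean was 3.98 and 2.20 transcripts per such cell. For Cd14 these were 75.1% and 63.6% of cells, with 6.87 and 4.51 transcripts per such cell. Tlr2 was found in 20.5% of cells in both groups, Myd88 in 20.9% and 17.4%, and Tlr4 in 6.0% and 6.1%.

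Tlr4 after thinning was found in 8 of 469 neutrophil-like cells in aGVHD (1.71%) and in 0 of 132 in control libraries, which allows a share of up to 2.27% at 3 cells, or 2.76% as the exact binomial bound. This limits cells with a transcript at the thinned depth only, since 6.1% of the same control cells had one without thinning. Over all kept cells the share per library was 0.94% ± 1.17 in aGVHD and 0 in 10 control libraries (permutation p = 0.0149, adjusted p = 0.0746, above 0 in 6 of 12 aGVHD libraries). Thinned to 1000 transcripts, the control share was the higher, at 2.19% in aGVHD and 2.44% in control libraries. No difference in Tlr4 is read from these shares.

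**Figure D4:**
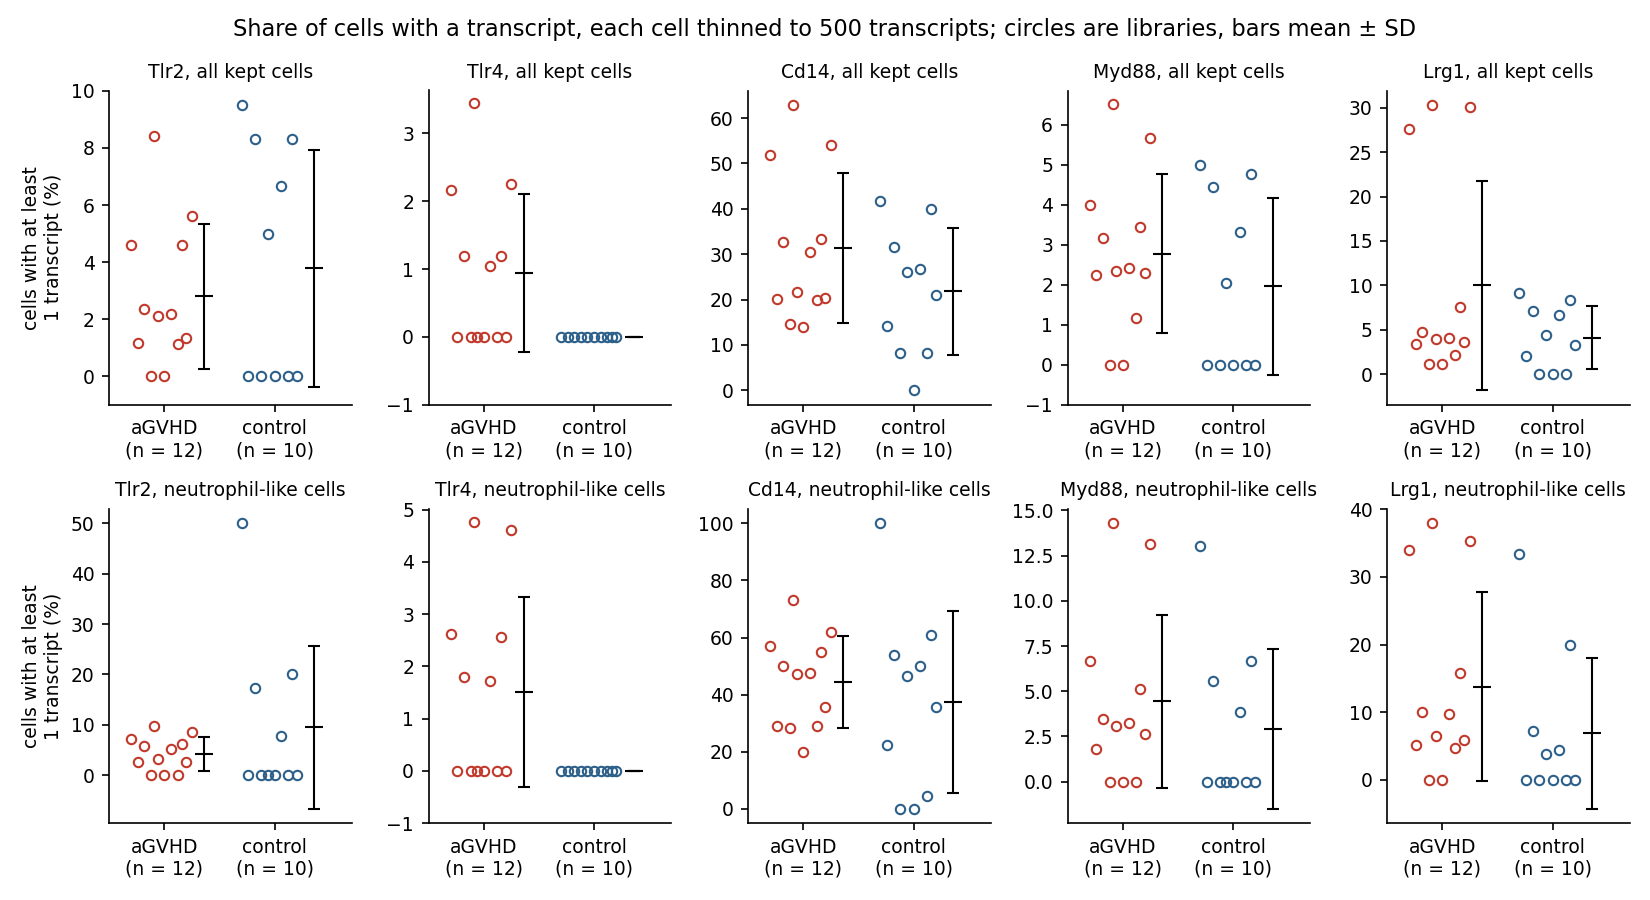
Share of cells with a transcript of each member after thinning to 500 transcripts, per library, over all kept cells and over neutrophil-like cells, with aGVHD left of control libraries; points are libraries and bars the group mean with SD. Cd14 averages 44.5% of neutrophil-like cells in aGVHD and 37.4% in control libraries, and the groups overlap for all 5 members.

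The members were also counted together in single neutrophil-like cells. After thinning, 201 of 469 aGVHD cells (42.9%) and 70 of 132 control cells (53.0%) showed none of the 5 members, 68 aGVHD cells (14.5%) and 9 control cells (6.8%) showed 2, and 9 aGVHD cells and 1 control cell showed 3. Of the 83 aGVHD cells with Lrg1, 56 (67.5%) also had Cd14, and in control libraries 2 of 7. Of the cells with Cd14, 25.1% in aGVHD and 4.0% in control libraries also had Lrg1. Cd14 was present in 14 of 23 aGVHD cells with Tlr2 (60.9%) and in 6 of 10 control ones. Tlr2 and Tlr4 were not found in the same cell at this depth. Cells of a library share their source, most aGVHD cells with Lrg1 are from replicates 4, 6 and 7, and these counts carry no test.

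Lcn2, which encodes the siderophore-binding lipocalin-2 of neutrophil granules, is the gene in the study's title. Lcn2-positive and Lcn2-negative neutrophil-like cells, by a transcript after thinning, were compared within the 7 libraries that held at least 5 of each, 6 aGVHD libraries and control replicate 2. Of 97 genes tested, 20.6% were called, 11.3% higher and 9.28% lower in Lcn2-positive cells. Cd14 averaged 3711 ± 2183 CPM in Lcn2-positive and 2860 ± 1485 CPM in Lcn2-negative cells (SD, n = 7 each). It was higher in Lcn2-positive cells in 6 of 7 libraries, with control replicate 2 the exception, at 1896 CPM against 3276 CPM. The log2 fold change was 0.45 (SE 0.20, limma p = 0.0438, adjusted p = 0.147). Of 3 other settings 1 passed, at 0.88 over 9 libraries with cells thinned to 1000 transcripts (limma adjusted p = 0.000656). The lowest of the 3 was 0.28, where a library needed only 3 cells per status. With each library left out the log2 fold change was 0.34 to 0.54, and 0 of 7 such fits passed.

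Lrg1 averaged 1533 ± 1005 CPM in Lcn2-positive and 571 ± 550 CPM in Lcn2-negative cells (SD, n = 7 each), from 80 and 35 transcripts, and was higher in Lcn2-positive cells in 6 of 7 libraries. It did not pass the filter on low counts. It did pass with 1 library left out, without control replicate 2 at a log2 fold change of 1.25 and without aGVHD replicate 1 at 1.30 (limma adjusted p of 0.0197 to 0.0243). Tlr2, Tlr4 and Myd88 had 3 to 10 transcripts each in a status and are not compared.

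Genes around the members in the pathway were described by lists, chosen with earlier results of these data known. Over all kept cells the median log2 fold change of all 1736 genes tested was 0.04. Of the other toll-like receptors, 1 of 10 could be tested. This was Tlr13, the mouse receptor for bacterial ribosomal RNA, which was higher in aGVHD at 130 ± 51.1 CPM against 49.5 ± 44.3 CPM in control libraries (log2 fold change 1.21, SE 0.38, limma adjusted p = 0.0434). Beside the list counts stand the 5.01% of all genes tested that were called higher. Of 11 accessory proteins, 6 were tested and 2 rose. Itgam, the integrin chain of the CD11b gate, had a log2 fold change of 0.86 (adjusted p = 0.0209), and Trem1, a receptor that amplifies toll-like receptor responses, one of 0.75 (adjusted p = 0.0492). The list's median was 0.00, and Itgb2, the partner chain of Itgam, had 0.15.

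Of 20 adaptors, kinases and factors downstream of MYD88, 7 were tested and 0 were called (limma), with 0 at an unadjusted p under 0.05 and a median of 0.09. Irak1, the kinase recruited by MYD88, had 658 ± 170 CPM in aGVHD and 700 ± 211 CPM in control libraries (log2 fold change -0.12, SE 0.20). Irak2 had 304 ± 146 CPM in aGVHD and 242 ± 188 CPM in control libraries (log2 fold change 0.44, SE 0.24, limma adjusted p = 0.242).

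Among negative regulators and NF-kB targets the called share was near that of all genes tested, 8.64%. Of 9 negative regulators tested, 1 rose and the median was 0.00. It was Il1rn, the interleukin-1 receptor antagonist, at 1851 ± 473 CPM in aGVHD and 1180 ± 391 CPM in control libraries (log2 fold change 0.63, SE 0.15, limma adjusted p = 0.0142). Nfkbia, the NF-kB inhibitor, had a log2 fold change of 0.37 (adjusted p = 0.153) and Zfp36, which speeds cytokine mRNA decay, 0.09. Of 12 NF-kB targets tested, 1 rose, with a median of 0.43. It was Tnf, at 986 ± 544 CPM in aGVHD and 414 ± 205 CPM in control libraries (log2 fold change 1.18, SE 0.34, limma adjusted p = 0.0322). The neutrophil chemokine gene Cxcl2 had 0.22 and the cytokine gene Il1b -0.02.

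Receptors of the interleukin-1 family that use MYD88 or decoy its ligands held 2 tested genes of 7 and 0 called (limma), both at an unadjusted p under 0.05. The decoy receptor gene Il1r2 had 2556 ± 539 CPM in aGVHD and 1940 ± 641 CPM in control libraries (log2 fold change 0.45, SE 0.15, adjusted p = 0.0528), and Il18rap, a chain of the interleukin-18 receptor, a log2 fold change of 0.63 (adjusted p = 0.13). Of the TGF-beta genes listed for LRG1, only Tgfbr1, a TGF-beta receptor gene, could be tested, at -0.25 (SE 0.26, limma adjusted p = 0.613).

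The acute phase and STAT3 genes, listed because Lrg1 belongs to the acute phase, had 5 called of 7 tested, all higher in aGVHD, against 5.01% of all genes tested, with a median of 0.75. This list too was chosen with earlier results of these data known. It holds Lcn2, the gene in the study's title, so its called share is a description and no test of the list. Hp, which encodes the haemoglobin-binding haptoglobin, had 814 ± 527 CPM in aGVHD and 262 ± 227 CPM in control libraries (log2 fold change 1.85, SE 0.41, limma adjusted p = 0.00995). Lcn2 had 1143 ± 1590 CPM in aGVHD and 85.1 ± 86.3 CPM in control libraries (log2 fold change 2.65, SE 0.81, adjusted p = 0.0421). Stat3, the factor activated by interleukin-6 and G-CSF signals, had a log2 fold change of 0.67 (adjusted p = 0.033), Il6ra, the interleukin-6 receptor gene, 0.86 (adjusted p = 0.0209), and Csf3r, the G-CSF receptor gene and a neutrophil marker, 0.50 (adjusted p = 0.0393). Pim1, a kinase gene, had 0.24 (adjusted p = 0.288).

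With each library left out in turn, Il1rn and Hp stayed past the threshold in 22 of 22 fits, Itgam and Il6ra in 21, Tnf in 20, Stat3 in 15 and Csf3r in 13. Lcn2 stayed in 9, Tlr13 in 7 and Trem1 in 5. All 10 calls stayed with values not rounded and in limma-trend, and 7 without a filter on low counts. With median-of-ratios scaling and at a minimum of 250 transcripts 6 stayed, and at a minimum of 1000 or without the title set 5. Some other settings ended most or all of these 10 calls. Without macrophage/monocyte-like cells none of the 9 that could be tested passed, with log2 fold changes of 0.22 for Il1rn (limma adjusted p = 0.464), 1.5 for Hp (0.069), 0.15 for Csf3r (0.562), 0.73 for Tnf (0.261) and 2.22 for Lcn2 (0.141). Without cells of very high total or high Kcnq1ot1, only Hp passed, and Il1rn was at 0.30 (adjusted p = 0.264). In the dated set none of the 10 passed and in the G1 set 2 did, Hp and Lcn2. Every one tested stayed above 0 in these settings. The neutrophil marker sums were higher on average in aGVHD, as given above, and in neutrophil-like cells 0 of the 33 list genes tested were called (limma, over 729 genes), with 6 at an unadjusted p under 0.05. There the list genes ran from -0.84 for Cxcl3 (SE 0.78, adjusted p = 0.713) to 1.76 for Lcn2 (SE 1.19, adjusted p = 0.607). Hp was at 1.74 (SE 0.54, adjusted p = 0.206), Tnf at 0.57, Stat3 at 0.41, Trem1 at 0.33, Itgam at 0.25, Csf3r at 0.04, Il1rn at -0.05 and Il1b at -0.55 (SE 0.20, adjusted p = 0.327). The list medians ran from -0.31 for the negative regulators to 0.70 for the acute phase genes, against -0.02 over all genes tested. The differences between these fits and those over all kept cells were not tested.

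**Figure D5:**
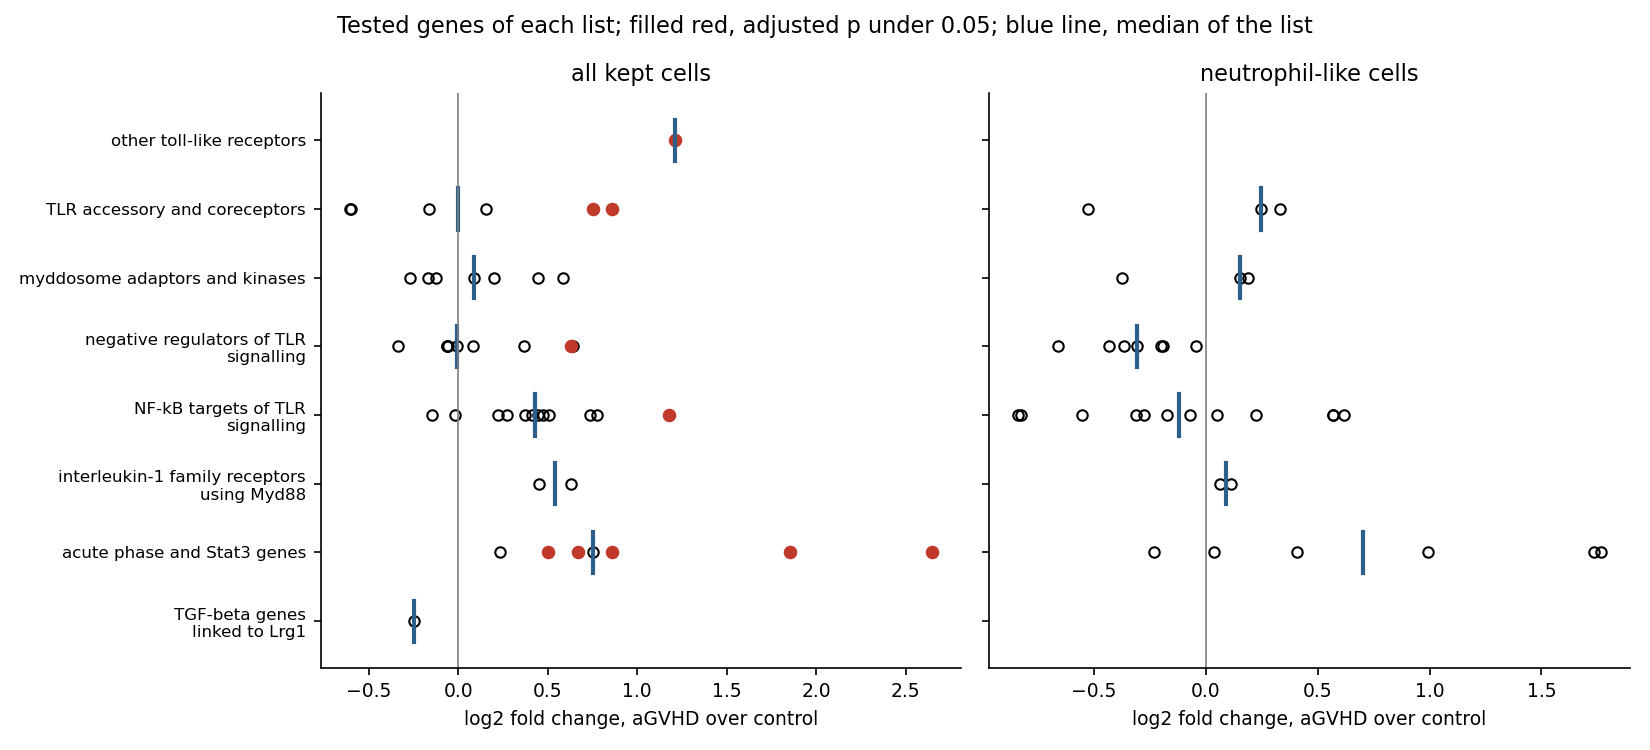
Fitted log2 fold change, aGVHD minus control, of each tested gene of each pathway list, over all kept cells and over neutrophil-like cells; each circle is a gene, filled red where it passed an adjusted p of 0.05, and the blue line is the median of the list. Over all kept cells the called genes lie between 0.50 and 2.65, and in neutrophil-like cells none is filled.

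Between Lcn2-positive and Lcn2-negative cells, 3 list genes were called apart from Lcn2 itself, all lower in Lcn2-positive cells. The log2 fold changes were -1.20 for Il1rn (SE 0.24, limma adjusted p = 0.00396), -0.64 for Nfkbia (SE 0.18, adjusted p = 0.0298) and -0.59 for Cxcl2 (SE 0.17, adjusted p = 0.029). Cd14, at 0.45, and Trem1, at 0.72, pointed the other way without passing.

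The genes whose level over the 12 clusters was most like that of each member were ranked by Pearson's r on log2(CPM + 10), among 3451 genes. For Cd14 these were Alox5ap (0.964), which activates leukotriene synthesis, Prdx5 (0.956), a peroxiredoxin gene, and Slc15a3 (0.956), a lysosomal peptide transporter gene. For Lrg1 they were Mmp8 (0.928), a neutrophil collagenase gene, Ckap4 (0.926) and Retnlg (0.916), both Mmp8 and Retnlg being markers used in the clustering. For Tlr2 they were Osm (0.949), a cytokine gene, Diaph1 (0.948) and Atg2a (0.945), and for Myd88 Casp4 (0.963), Ddx3x (0.958) and Cds2 (0.951). Among the members, Cd14 and Tlr2 had an r of 0.892 and Cd14 and Lrg1 one of 0.690. Tlr4, with 90 transcripts, was not ranked. The 12 points share libraries and depth, and the values are descriptions.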

How the data were processed

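CEL-Seq2 libraries of sorted ileal neutrophils were analysed from 22 tables of genes by 192 barcodes. The deposited values are counts of transcripts per gene and barcode that the authors estimated from unique molecular identifiers, with no scaling for depth. All 1419098 values above 0 have the form expected for a whole number of identifiers drawn from 4096, at a relative tolerance of 1e-06. The submitters' processing notes list BWA 0.6.2-r126 and bcl2fastq 2.17.1.14. Neither the build nor the annotation is given in the sources used here, and the strand setting of the counting is not given there either. A gene with no row in a table was taken as 0 there.

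Values were rounded to whole transcripts, and 1383 of 4224 barcodes with at least 500 were kept. Almost all cells of a library fell in 96 of its barcodes, which was seen in the totals and is in no label. Gene models without a name of their own (6238 of 23091) were left out of totals and tests. No doublet caller was run. Clustering used 200 marker and list genes without the members: Pearson residuals at an overdispersion of 100 gave 12 principal components, and Leiden communities (igraph 0.11.9, leidenalg 0.10.2) were taken at resolution 1 from a graph of 15 neighbours. A cluster was named where at least 3 markers of a class were raised 1.5-fold and more than for any other class. It stayed unnamed where under 30% of its cells' transcripts came from named genes. These naming thresholds were set after seeing the data, and a class may differ from the study's own.

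Transcripts were summed per library and tested with limma 3.58.1 (R 4.3.3): voom weights, trimmed-mean scaling (trim 0.3 and 0.05) on genes with at least 2 transcripts expected in the shallowest library, 10 expected at the median size and a sum of 15, and Benjamini-Hochberg adjustment over all genes tested at 0.05. For shares, group labels were permuted inside each title set, two-sided and adjusted over the 5 members (scipy 1.17.1 on Python 3.11.15), in full for groups under 10 libraries and otherwise in 100000 draws. Both were tested on simulated data. Intervals are exact Poisson or exact binomial (Clopper-Pearson), at 95%. The members and lists were chosen with earlier results of these data known. Named genes are the members, the list genes past the threshold, the 2 tested genes of highest mean CPM in each list, and the 3 genes most alike each member over clusters. Promoter sequences are from RefSeq and are shown for 3 members. Tlr4 had no entry, and Cd14 was left out of the search and is not shown. Alternatives covered the scaling, filters, cell minimum, title sets, weights, clustering, thinning and each library left out. No libraries held identical values.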

Additional observations from a re-analysis of the deposited data

Results flagged for a closer look

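Within groups of 4 to 10 libraries, 20 sets of member values were looked at for a library far from the others, and chance gives about 1 such library in 20. The aGVHD group, with 12 libraries, is outside that size and was not looked at, so all sets are of control libraries. A total of 4 were found, and 2 of these rest on very few cells or transcripts. The share of neutrophil-like cells with Tlr2 was 50% in control replicate 9, which held 2 such cells. The Tlr4 level over all kept cells was 134.65 CPM in control replicate 10, from 2 transcripts. The Cd14 level in neutrophil-like cells was 5040.7 CPM in control replicate 4, from 109 transcripts in 15 cells, above each of the 12 aGVHD libraries. Without that library the log2 fold change of Cd14 in the class was 0.64 against 0.38 with it, the highest of the 18 fits with a library left out, and none of them passed the threshold (limma adjusted p of 0.515 or more). The share of neutrophil-like cells with Myd88 was 13.04% in control replicate 2, which held 23 such cells.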

How the results depend on the processing

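A total of 86 values were recomputed under the alternatives other than leaving out a library. Of the 767 fold changes, shares and levels this gave, 627 kept their direction and their side of the threshold, 83 lost a call, 7 gained one and 50 changed direction. Of 120 counts of genes, 62 stayed within 1.5 times, 41 were lower and 17 higher. The cause of these changes was not tested. Depth limits what can be told of Tlr4, Tlr2 and Myd88, with few transcripts in a library, and of control libraries with few cells. Clustering on 1000 variable genes left the macrophage/monocyte-like cluster unnamed and gives no value for that class.

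Over all kept cells, the log2 fold change of Lrg1 passed the threshold without a filter on low counts at 1.93 and in limma-trend without weights at 1.93, and that of Cd14 without the filter at 0.97. Tlr2 stayed between -0.05 and 0.28 with each library left out, Cd14 between 0.75 and 1.07 and Lrg1 between 1.53 and 2.04, and Myd88 was -0.02 in the dated set alone. Cd14 between Lcn2 statuses was 0.88 with cells thinned to 1000 transcripts, the only 1 of 3 alternatives to pass. The lowest of the 3 was 0.28, where a library needed only 3 cells per status. With each library left out it ran from 0.34 to 0.54, and 0 of 7 such fits passed.

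Title numbers are shared by 6 pairs of libraries in the dated set. The correlation of a pair's deviations from the group means was -0.04 to 0.17, and 1 of 6 libraries correlated best with its own number, so the numbers were not taken as pairs. With the number as a replicate block, 32 genes were called over all kept cells, against 8 in the same libraries without the block and 150 in all libraries. Lrg1 was then 1.92 (limma adjusted p = 0.0233), against 1.64 without the block (adjusted p = 0.156), Tlr2 -0.20 with and -0.12 without the block, Il1b 0.06 and 0.04, and in neutrophil-like cells Csf3r -0.07 and -0.07 and Irak1 0.09 without it. In neutrophil-like cells 0 genes were called either way.

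The count of genes called over all kept cells, 150, was 632 without a filter on low counts, 18 without cells of very high total or high Kcnq1ot1, 44 in the dated set, 8 in the G1 set, 16 in libraries with at least 20 cells, 14 without macrophage/monocyte-like cells and 62 to 203 with a library left out. In neutrophil-like cells the count, 1, was 2 without a filter, in limma-trend, in libraries with at least 5 such cells and at clustering resolution 2, 3 in libraries with at least 20 such cells, and 0 in either title set, at resolution 0.5 and on 1000 variable genes. It was also 0 under both alternatives chosen after seeing the data, with the 2 unnamed clusters that hold neutrophil markers and Siglecf and without the granule gene cluster, and 0 to 3 with a library left out. Between Lcn2 statuses the count, 20, was 58 without thinning and 8 to 25 with a library left out.

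Of the list genes over all kept cells, none of those called changed direction. At a minimum of 1000 transcripts Itgb2 was -0.02 and Zfp36 -0.05. Without cells of very high total, Itgb2 was -0.05, Zfp36 -0.13, Cxcl2 -0.08 and Pim1 -0.04, and without macrophage/monocyte-like cells -0.01, -0.22, -0.19 and -0.16. In the G1 set Itgb2 was -0.19, Irak1 0.10 and Il1b 0.21, in the dated set Zfp36 was -0.05 and Tgfbr1 0.00, and in libraries with at least 20 cells Il1b was 0.09. With a library left out, Itgb2 ran from -0.02 to 0.31, Zfp36 from -0.02 to 0.16 and Il1b from -0.10 to 0.04.

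In neutrophil-like cells Il18rap was -0.06 and -0.05 at a minimum of 250 and 1000 transcripts, -0.01 without the title set, -0.17 in the dated set, -0.01 and -0.21 with at least 5 and 20 such cells per library, -0.02 at resolution 2, -0.09 on 1000 variable genes and -0.18 without the granule gene cluster. Il1r2 was -0.08 in the G1 set, -0.02 at resolution 0.5, -0.03 on 1000 variable genes and -0.01 with the 2 unnamed clusters. Nfkbia was 0.00 with at least 20 cells, and Csf3r -0.03 without a filter and -0.06 with at least 5 cells. With a library left out, Il18rap ran from -0.13 to 0.26 and Csf3r from -0.03 to 0.09.

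Differences in shares, in percentage points, turned over all kept cells for Tlr2 to 0.19 at 2 or more transcripts and 0.68 in the G1 set, for Tlr4 to -0.25 when thinned to 1000, and for Myd88 to -0.56 in the dated set. In neutrophil-like cells they turned for Tlr2 to 0.15 at 2 or more transcripts, for Tlr4 to -4.01 when thinned to 1000, -1.70 without thinning and -0.22 at 250 transcripts of named genes, and for Myd88 to -0.40 in libraries with at least 10 cells and -1.54 in the dated set. For Lrg1 the difference was 12.41 at 250 transcripts of named genes, past the threshold, a setting that left out cells with fewer such transcripts.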
